A study of Mus musculus with 4 samples.

Results

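Antigen receptor V segments are the variable gene segments of the immunoglobulin and T cell receptor loci. They were taken as every promoter whose gene symbol starts with Ighv, Igkv, Iglv, Trav, Trbv, Trgv or Trdv followed by a digit, which gave 105 of the 26354 promoters in the table. Of these, 66 belonged to immunoglobulin (IG) loci and 39 to T cell receptor (TR) loci, and the other 26249 promoters served for comparison. Dimethylation of lysine 9 on histone H3 (H3K9me2) was measured by chromatin immunoprecipitation with sequencing (ChIP-seq). The tissue was the aortic media of male, wild-type C57Bl/6J mice, used ex vivo with neither culture nor treatment once fat, adventitia and endothelium had been removed. Experiments v102 and v134 each gave an H3K9me2 ChIP library and an input library of unenriched chromatin, 4 libraries in all. The age and number of animals per library are not given in the sources used here, and p-values measure the spread between these libraries only.

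A V segment codes for most of the antigen-binding domain of a receptor chain. In developing B and T lymphocytes the RAG recombinase joins 1 V segment to a J segment (with a D segment between them in heavy, beta and delta chains), and only then is the V promoter used at high level. Vascular smooth muscle cells (VSMCs) do not rearrange these loci, and the segments there lie in germline order. H3K9me2 is laid down mainly by the methyltransferases EHMT2 and EHMT1 and is found over broad silent regions. The immunoglobulin V promoter is known for an octamer, ATGCAAAT, which the factors Oct-1 and Oct-2 bind, and it lies in opposite orientation in heavy chain and light chain promoters.

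The following stretches are the 150 bases before the annotated start of the member with the most ChIP reads in each of the larger loci and of Trdv5, a T cell receptor segment with a low H3K9me2/input ratio. They are printed 5′ to 3′ on the strand of the gene from the GRCm38 genome, with the octamer or its reverse complement in capitals. Ighv6-3 is at chr12:114392170-114392319 (minus strand), Igkv1-35 at chr6:70011674-70011823 (minus), Iglv3 at chr16:19241691-19241840 (minus), Trav1 at chr14:52427778-52427927 (plus), Trbv23 at chr6:41215923-41216072 (plus) and Trdv5 at chr14:54149295-54149444 (minus).
Ighv6-3: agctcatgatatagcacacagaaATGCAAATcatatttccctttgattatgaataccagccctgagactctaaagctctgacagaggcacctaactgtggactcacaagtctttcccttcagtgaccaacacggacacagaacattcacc
Igkv1-35: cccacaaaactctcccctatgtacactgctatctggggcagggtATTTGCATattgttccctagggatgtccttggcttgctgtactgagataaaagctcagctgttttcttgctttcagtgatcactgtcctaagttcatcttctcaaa
Iglv3: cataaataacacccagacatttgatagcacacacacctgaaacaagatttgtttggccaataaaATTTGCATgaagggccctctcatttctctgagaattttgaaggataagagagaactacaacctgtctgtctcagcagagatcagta
Trav1: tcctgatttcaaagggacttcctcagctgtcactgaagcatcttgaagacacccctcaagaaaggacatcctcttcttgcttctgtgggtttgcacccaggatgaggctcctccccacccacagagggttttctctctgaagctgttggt
Trbv23: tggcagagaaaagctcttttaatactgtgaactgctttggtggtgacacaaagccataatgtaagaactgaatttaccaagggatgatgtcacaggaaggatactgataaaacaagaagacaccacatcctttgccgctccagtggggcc
Trdv5: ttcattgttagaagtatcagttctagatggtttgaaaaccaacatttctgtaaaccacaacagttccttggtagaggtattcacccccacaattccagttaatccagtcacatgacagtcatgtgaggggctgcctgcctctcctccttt
The octamer stands in capitals in the first 3 sequences and not in the T cell receptor sequences. In the window from 250 bases before to 50 bases after the annotated start, the 8 letters ATGCAAAT were found on the gene's strand in 16 of 23 Ighv promoters, and the reverse complement ATTTGCAT in 27 of 40 Igkv and 3 of 3 Iglv promoters. No Ighv promoter held the reverse form and no light chain promoter the forward form. None of the 39 T cell receptor promoters held either form, beside 1.82% of all 22329 promoters matched to the annotation. The first base of the octamer lay at a median of 108.5 bases before the start in Ighv (range 133 to 57 before it) and 97 bases before it in Igkv promoters. The heptamer CTCATGA, a second element of heavy chain V promoters, was present in either orientation in 6 of 23 Ighv promoters (26.1%), compared with 2.30% of all matched promoters.

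A recombination signal sequence follows each V segment and consists of a heptamer, a spacer of 12 or 23 bases and a nonamer. It is shown because it marks a listed promoter row as a V segment independently of its name. An exact heptamer CACAGTG and nonamer ACAAAAACC with a spacer of 12 bases, read on the gene's strand within 1000 bases after the start, was found in 11 of 40 Igkv segments and in 1 other of all 22329 matched rows. With a spacer of 23 bases it was found in Trav3-1 and Trbv1 and in no other matched row. The consensus letters are in capitals in these examples, which lie at chr6:68910383-68910410 (minus strand) for Igkv4-86, chr6:67556217-67556244 (plus) for Igkv2-137 and chr14:52581214-52581252 (plus) for Trav3-1.
Igkv4-86: CACAGTGatacagactggaACAAAAACC
Igkv2-137: CACAGTGatacagccctgaACAAAAACC
Trav3-1: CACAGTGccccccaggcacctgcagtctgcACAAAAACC

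The promoter totals of the 4 libraries were 162233 and 229605 reads for the ChIP libraries and 619100 and 1084349 reads for the inputs. The median promoter had 4 and 5 ChIP reads. An immunoglobulin V promoter had 17 (v102) and 29 (v134) ChIP reads at the median, with 16 and 34 input reads. A T cell receptor V promoter had 9 and 13 ChIP reads with 18 and 42 input reads. For each experiment the log2 ratio of ChIP to input was computed after both were divided by their library's promoter total (pseudocount of 1 read), so that 0 is the ratio of the totals. In bulk chromatin, a larger share of cells carrying the mark and more mark per cell cannot be told apart. Of 7 smooth muscle marker promoters, 3 were below input by edgeR's quasi-likelihood test, beside 17.0% of all promoters, and 1 (Smtn, a cytoskeletal protein of smooth muscle) was above it, beside 18.6%. With the experiment as a replicate block 1 of them, Myh11, was below input, and Lmod1 and Myocd were not (adjusted p = 0.063 and 0.065). Myh11, the smooth muscle myosin heavy chain, had 0 ChIP reads in both experiments beside 60 input reads in all. Of 4 endothelial marker promoters 1 (Pecam1) was below input, and of 3 fibroblast ones 1 (Pdgfra), neither with the block. None of either list was above input. Median log2 ratios were -1.6 for the smooth muscle, -0.73 for the endothelial and -0.65 for the fibroblast list.

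The ratio of H3K9me2 ChIP to input was high at nearly every immunoglobulin V promoter. At T cell receptor V promoters it was lower at the median and more varied. The median log2 ratio of the 66 immunoglobulin members was 2.07, ranging from 0.50 to 2.83, while that of the 39 T cell receptor members was 0.88, ranging from -0.96 to 2.46, and that of all other rows was -0.32. In experiment v102 the medians were 2.25, 0.98 and -0.12 for immunoglobulin, T cell receptor and other rows, and in experiment v134 they were 2.06, 0.61 and -0.38. Both experiments had a log2 ratio above 0 at 65 of 66 immunoglobulin members and at 26 of 39 T cell receptor members. Among all 26354 promoters ranked by mean log2 ratio, 60 immunoglobulin members were in the top 10% and 12 in the top 1%, whereas 7 and 0 T cell receptor members were. In the plot of single promoters by locus, both experiments are joined by a line at each segment.

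**Figure D1:**
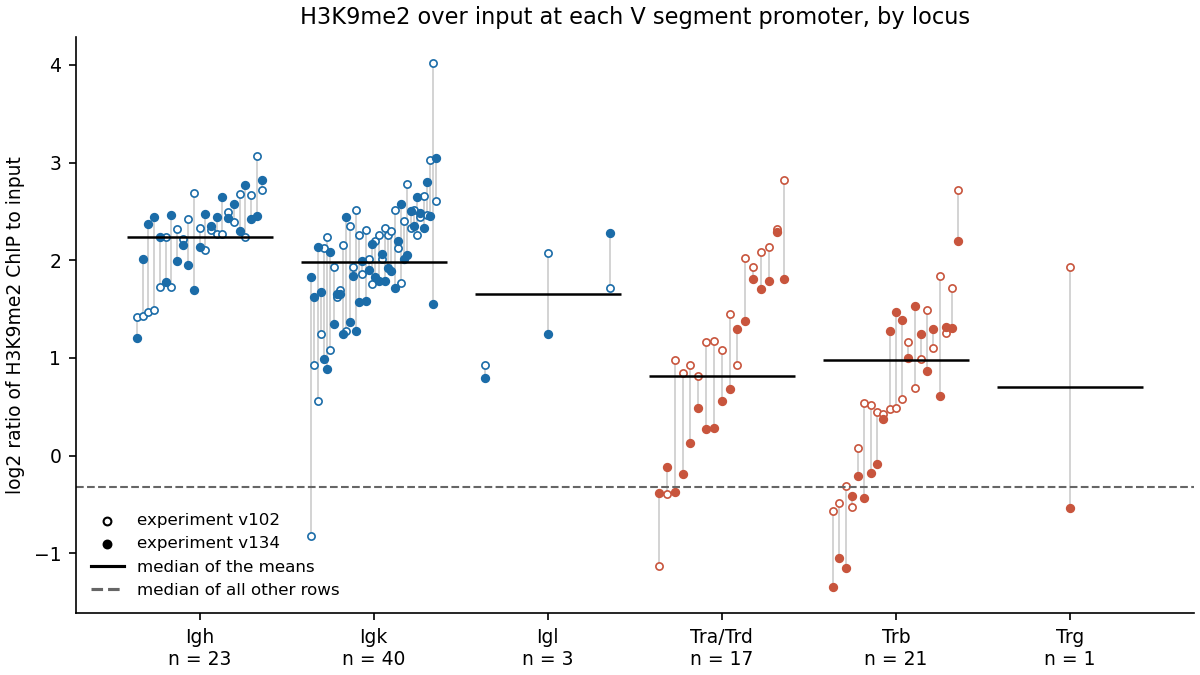
Log2 ratio of H3K9me2 ChIP to input (y axis) at each of the 105 V segment promoters, grouped by locus and sorted by mean within it; open points are experiment v102 and filled points v134, black lines are medians of the means and the dashed line is the median of all other rows (-0.32). All Igh members lie above 1 in both experiments, while Tra/Trd and Trb members run from below -1 to above 2.

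By edgeR's quasi-likelihood test across all promoters with Benjamini-Hochberg adjustment, 64 of 66 immunoglobulin members and 17 of 39 T cell receptor members had more ChIP than input (adjusted p under 0.05), beside 18.6% of all promoters. Of simulated promoters with a true 2-fold rise, edgeR called 6 of 50, so a missing call does not mean that enrichment was absent. None of the members was below input, beside 17.0% of all promoters. At an unadjusted p under 0.05, 0 immunoglobulin members and 1 T cell receptor member (Trbv5) were below input, and DESeq2 called 0 below. With the experiment as a replicate block, 62 immunoglobulin and 14 T cell receptor members were above input, beside 15.8% of all promoters, and 0 were below, beside 8.3%. The calls lost were Igkv4-56, Igkv8-24, Trbv3, Trbv13-1 and Trbv21. DESeq2 called 60 and 8 members above input and left the adjusted p of 5 and 13 members undefined, so that those could not be called. Over all promoters it left 17372 undefined and called 3026 above and 29 below, against 4902 and 4484 by edgeR. The T cell receptor count was lower without the v134 ChIP library or either input. In those fits, which leave 1 library in a group, fewer of all promoters were called above input as well. Over all promoters, the log2 fold change had a median of -0.35 in the edgeR fit and -0.50 with library totals in place of TMM, so fold changes below are to be read against that shift.

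Pooling the reads of a class gives values that rest on more reads than any single promoter. The pooled ChIP to input ratio of immunoglobulin V segments, relative to the library totals, was 4.55 (95% Wilson interval 4.19 to 4.95) in v102 and 4.17 (3.92 to 4.43) in v134. For T cell receptor V segments it was 2.19 (1.95 to 2.47) and 1.76 (1.60 to 1.93). Immunoglobulin segments thus had 2.08 times (interval 1.80 to 2.40) the pooled ratio of T cell receptor segments in v102 and 2.37 times (2.12 to 2.65) in v134, a mean log2 difference of 1.15 ± 0.14 (SD, n = 2 experiments). Against all other rows, the pooled ratio was 4.58-fold and 4.20-fold higher at immunoglobulin segments, and 2.21-fold and 1.77-fold higher at T cell receptor segments. The intervals cover counting error only, since the reads carry no molecular identifiers and need not stand for separate molecules. With 2 experiments an exact test cannot give a p below 0.5, so the differences between classes carry no p-value.

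**Figure D2:**
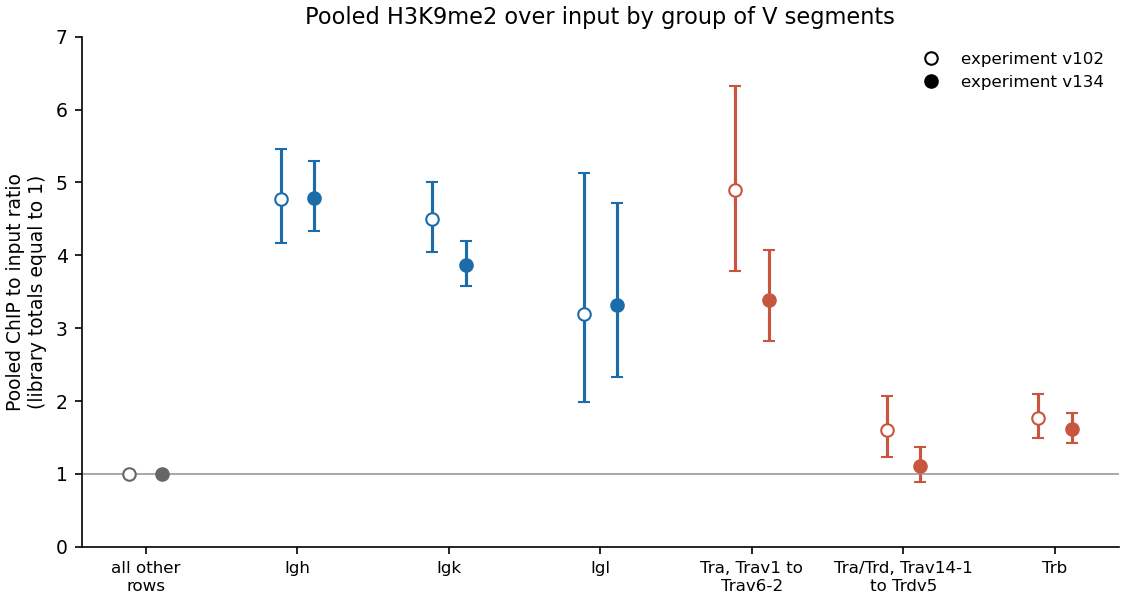
Pooled H3K9me2 ChIP to input ratio (y axis, library totals equal to 1) for groups of V segments (x axis) in experiments v102 (open) and v134 (filled), with 95% Wilson intervals for counting error. Igh, Igk and the 6 segments from Trav1 to Trav6-2 lie between 3.39 and 4.89, while the other Tra/Trd segments and Trb lie between 1.11 and 1.77; the single Trgv2 is not drawn.

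The Igh locus on chromosome 12 codes for the heavy chain. All 23 listed Ighv promoters were called above input, also with the replicate block, and their mean log2 ratios ran from 1.31 (Ighv5-2) to 2.77 (Ighv8-14) with a median of 2.23. They differed from each other by about as much as counting error gives, the chi-square per degree of freedom being 0.955 in v102 and 1.05 in v134. Ighv6-3 had the most ChIP reads, 41 in v102 and 52 in v134, beside 24 and 50 input reads. ChIP reads outnumbered input reads there in both experiments before any scaling, and the edgeR log2 fold change was 2.61 (SE 0.33, adjusted p = 1.7e-12). Ighv3-6 had 25 and 41 ChIP reads beside 20 and 28 input reads, with a log2 fold change of 2.69 (SE 0.36, adjusted p = 2.5e-11). Ighv15-2, which lacks the exact octamer, had 32 and 42 ChIP reads beside 23 and 33 input reads (log2 fold change 2.64, SE 0.35, adjusted p = 9.2e-12). Those 3 segments were in the top 1% of all promoters. With the replicate block, their edgeR adjusted p was larger, at 6.5e-06 for Ighv6-3, 1.0e-05 for Ighv3-6 and 8.0e-06 for Ighv15-2. Adjusted p-values and SE of single promoters are from the edgeR fit without the block unless stated otherwise.

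The Igk locus on chromosome 6 codes for the kappa light chain. Of its 40 listed members, 39 were above input and 37 were so with the replicate block, and the median log2 ratio was 1.98. The pooled ratio of Igh was 1.06 times that of Igk in v102 (interval 0.891 to 1.26) and 1.24 times in v134 (1.09 to 1.41). These intervals cover counting error only, and Igk members varied by more than that (chi-square per degree of freedom 1.8 and 1.6). A difference between these loci was not tested. Igkv1-35 had the most ChIP reads of the locus, 36 and 70, beside 27 and 58 input reads (log2 fold change 2.57, SE 0.33, adjusted p = 1.5e-12). Igkv12-89 was also in the top 1%, with 37 and 33 ChIP reads beside 22 and 31 input reads (2.66, SE 0.36, adjusted p = 1.4e-11). The lowest immunoglobulin members with at least 20 reads in each input were kappa segments as well, and all 4 were called above input. Igkv15-103 had 17 and 26 ChIP reads beside 28 and 39 input reads, with a log2 fold change of 1.59 (SE 0.38, adjusted p = 0.00029). Igkv1-131 had 16 and 27 ChIP reads beside 20 and 41 input reads, with a mean log2 ratio of 1.64. Igkv1-99 (log2 ratio 1.28 in v102 and 2.44 in v134) and Igkv2-112 (1.93 and 1.84) stood at the 94th to 95th percentile of all promoters.

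A few kappa segments, singled out after their values were seen, differed between the experiments. Igkv3-7, the listed member nearest the J segments, had 3 ChIP and 26 input reads in v102 but 11 ChIP and 15 input reads in v134. Its log2 ratio was -0.82 in the first and 1.82 in the second, and it was the only kappa member not called above input. Igkv8-21 went the other way, with 33 ChIP and 7 input reads in v102 (log2 ratio 4.02) and 22 and 36 in v134 (1.55). Kappa V segments lie in both orientations, so that their joining deletes or inverts the DNA between. The 8 listed members on the plus strand had a median log2 ratio of 1.96 and the 32 on the minus strand 1.98. Their pooled ratios were 3.11 (interval 2.47 to 3.91) and 5.00 (4.42 to 5.65) in v102, and 3.97 (3.32 to 4.75) and 3.85 (3.52 to 4.20) in v134. In v102 the plus-strand members varied by more than counting error (chi-square per degree of freedom 3.04), which the intervals do not cover. Igkv3-7 is on the plus strand and Igkv8-21 on the minus strand, and a difference between the strands was not tested.

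The Igl locus on chromosome 16, for the lambda light chain, has 3 annotated V segments and all were listed. Iglv3 had 18 and 36 ChIP reads beside 21 and 35 input reads (log2 fold change 2.18, SE 0.37, adjusted p = 1.3e-07). Iglv2 had 10 ChIP reads in each experiment beside 9 and 21 input reads and was called above input, but not without either input library. Iglv1 had 3 and 6 ChIP reads beside 7 and 18 input reads, with a mean log2 ratio of 0.87, and was not called.

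Families group V segments of related sequence. Among the families with at least 3 listed members, the median log2 ratio ran from 1.81 (Igkv8, 4 members) to 2.47 (Igkv6, 3 members) for the immunoglobulin families. Ighv3 (3 members) had a median of 2.46 and Igkv4, the largest listed family with 9 members, 1.91. The only T cell receptor family of that size, Trbv13 (3 members), had a median of 0.40. The 10 immunoglobulin members annotated as pseudogenes had a median log2 ratio of 2.27 and all 10 were above input, while the 56 functional segments had a median of 2.02 and 54 were above input. The 46 immunoglobulin members with the octamer and the 20 without it had medians of 2.02 and 2.11. In v102 the pooled ratio was 4.35 (interval 3.94 to 4.81) with the octamer and 5.03 (4.33 to 5.84) without it, and in v134 it was 4.21 (3.91 to 4.53) and 4.09 (3.65 to 4.57), so that the order differed between the experiments.

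T cell receptor V segments varied among themselves by more than counting error. Chi-square per degree of freedom was 3.06 in v102 and 4.63 in v134 over the 39 members, against 1.47 and 1.61 over the 66 immunoglobulin members. The SD between members was 0.88 on the log2 scale, where counting error alone gives 0.39, compared with 0.45 and 0.33 for immunoglobulin. Across members, the log2 ratios of both experiments had a Spearman rho of 0.681 for T cell receptor (n = 39) and 0.252 for immunoglobulin segments (n = 66), given as a description because members share libraries.

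The Tra locus on chromosome 14 codes for the alpha chain and holds the delta chain segments (Trdv) within it. Its 17 listed members fell on either side of a stretch of 887 kb without a listed member, a split made after their values were seen. All 6 members before it, from Trav1 to Trav6-2 at the end far from the J segments, were called above input with mean log2 ratios of 1.70 to 2.32, also with the replicate block and in DESeq2. None of the 11 members after it, from Trav14-1 to Trdv5, was called by edgeR (2 at an unadjusted p under 0.05), and their ratios ran from -0.75 to 1.11. DESeq2 called none of them either, but left the adjusted p of several undefined, Trav14-1 and Trdv5 among them. The pooled ratio before the stretch was 3.05 times that after it in v102 (interval 2.12 to 4.40) and 3.06 times in v134 (2.31 to 4.06). Relative to immunoglobulin segments it was 1.07 times in v102 (interval 0.820 to 1.41) and 0.814 times in v134 (0.671 to 0.986).

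Trav1 had the most ChIP reads of the locus, 38 and 45, beside 20 and 61 input reads, and its log2 ratio was 2.83 in v102 and 1.81 in v134. Its log2 fold change was 2.35 (SE 0.33, adjusted p = 1.8e-10). At the other end, Trdv5, a delta segment that lies inverted beyond the delta constant region, had 2 and 6 ChIP reads beside 24 and 42 input reads (log2 fold change -0.78, SE 0.59, adjusted p = 0.29). Trav20, annotated as a pseudogene, had 4 and 8 ChIP reads beside 24 and 45 input reads (-0.26, SE 0.52, adjusted p = 0.71). The 5 delta segments had a median log2 ratio of 0.53 and none was called by edgeR in either direction (0 at an unadjusted p under 0.05). DESeq2 called none of them either, but left the adjusted p of Trdv4 and Trdv5 undefined. The pooled ratio of the 5 delta segments was 1.60 (interval 1.13 to 2.27) in v102 and 0.954 (0.686 to 1.33) in v134.

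The Trb locus on chromosome 6 codes for the beta chain, and 11 of its 21 listed members were above input (8 with the replicate block, 2 in DESeq2). Trbv23 stood apart, with 30 and 33 ChIP reads beside 17 and 34 input reads and a log2 fold change of 2.58 (SE 0.36, adjusted p = 1.5e-10). The next highest members with enough input reads were Trbv19, with 18 and 23 ChIP reads beside 21 and 45 input reads (1.59, SE 0.38, adjusted p = 0.00037), and Trbv16, with 17 and 25 beside 31 and 49 (1.31, SE 0.37, adjusted p = 0.0028). Trbv30 had 11 and 34 ChIP reads beside 22 and 69 input reads (1.27, SE 0.36, adjusted p = 0.0030). The call for Trbv16 was lost without the v134 input (adjusted p = 0.078) and in DESeq2 (0.058). That for Trbv30 was lost without the v134 ChIP (0.52), without the v102 input (0.11) and in DESeq2 (0.096), and over all alternatives its adjusted p ranged from 0.00021 to 0.52.

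The lowest beta segments with at least 20 reads in each input were Trbv4 and Trbv1. Trbv4 had 3 and 6 ChIP reads beside 21 and 43 input reads (log2 fold change -0.56, SE 0.58, adjusted p = 0.45), while Trbv1, the segment farthest from the J segments, had 7 and 8 beside 28 and 48 (-0.08, SE 0.48, adjusted p = 0.91). Trbv5 had the lowest mean log2 ratio of the 105 members, -0.57 in v102 and -1.35 in v134. The listed members followed each other in groups, as seen after the values were known. Among the 9 from Trbv16 to Trbv30, spread over 130 kb, 8 were above input with log2 ratios of 0.88 to 2.46, while 3 of the 11 from Trbv1 to Trbv15, over 250 kb, were above input with ratios of -0.96 to 1.11. These counts were 7 and 1 with the replicate block or with library totals in place of TMM. In DESeq2, which left the adjusted p of several members from Trbv1 to Trbv15 undefined, the counts were 2 and 0. Both counts were lower without the v134 ChIP library or either input, where fewer of all promoters were called above input as well. The windows of Trbv2 and Trbv3 overlap, so that these 2 members share reads. The gamma chain locus had 1 member, Trgv2, with 11 ChIP and 11 input reads in v102 and 5 and 40 in v134. Its log2 ratio was 1.93 in the first experiment and -0.53 in the second, and it was not called (adjusted p = 0.32).

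**Figure D3:**
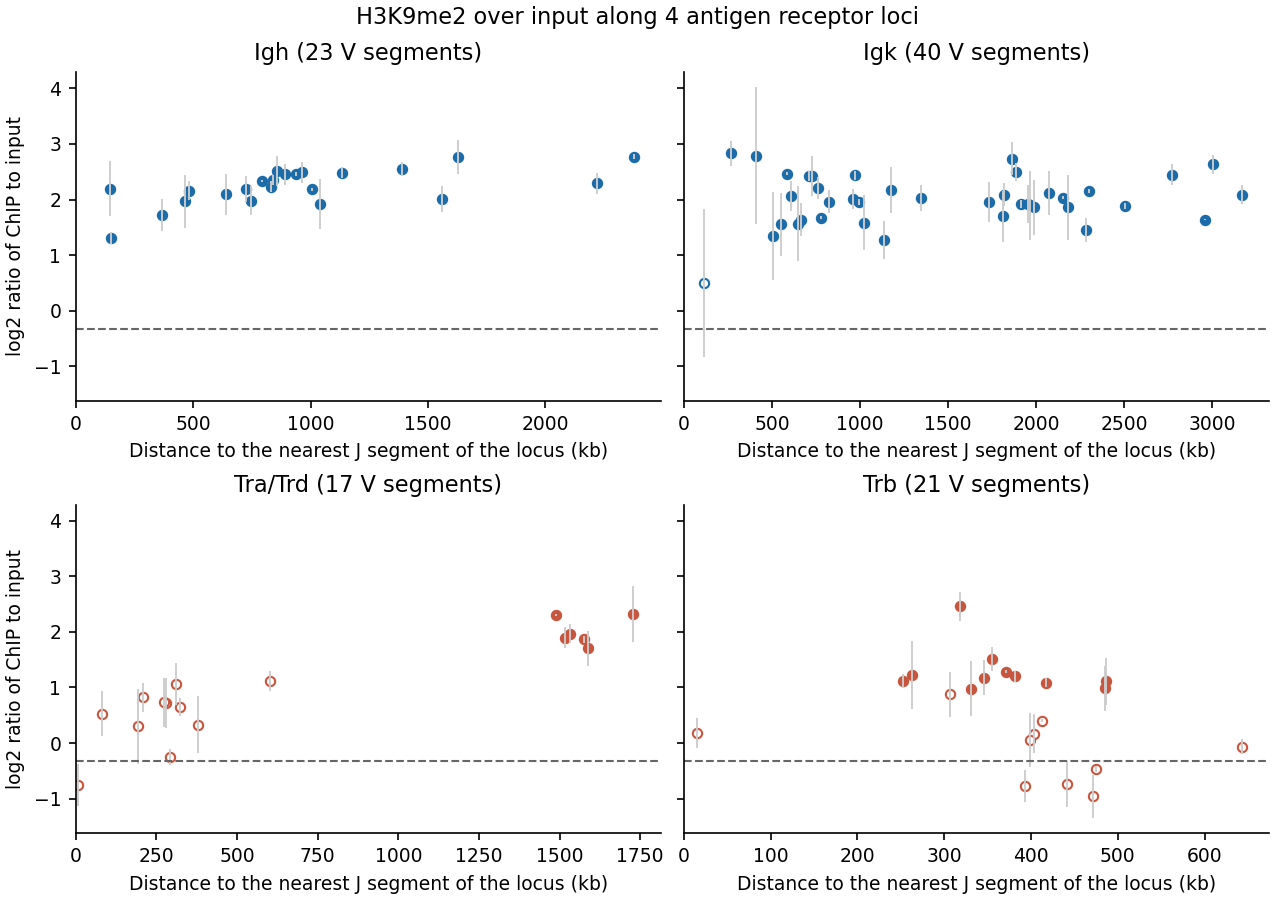
Mean log2 ratio of ChIP to input (y axis) against the distance of each V segment from the nearest J segment (x axis, kb) in 4 loci. In Tra/Trd, distances of alpha and delta segments alike are to the nearest alpha J segment. Filled points were called above input by edgeR and open points were not. Grey lines join the 2 experiments and the dashed line is the median of all other rows. All Igh members and all Igk members but Igkv3-7, the nearest to the J segments, are filled, while the filled Tra/Trd members lie 1488 to 1727 kb from the J segments.

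Along the loci, the log2 ratio increased with distance from the J segments in Tra/Trd (Spearman rho 0.809, n = 17) and in Igh (0.605, n = 23), and had no order in Igk (0.0467, n = 40). In Trb it was lower at greater distance (-0.479, n = 21). These are descriptions over segments that share libraries and neighbourhoods. In Igh the values went from 2.19 at Ighv2-1, 145 kb from the J segments, to 2.77 at Ighv8-14, at 2379 kb, with 1.31 at Ighv5-2, at 149 kb. The Igh members differed by about as much as counting error gives, and their log2 ratios had a Spearman rho of 0.149 between the experiments. In Tra/Trd, distances of alpha and delta segments alike were taken to the nearest alpha J segment. The values there went from -0.75 at Trdv5, at 6 kb, to 2.32 at Trav1.

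The GC content of the 2-kb windows moved with the ratio across all promoters, as the plot of ratio against GC content shows. V segments had less GC than other promoters, with medians of 38.9% for immunoglobulin, 42.6% for T cell receptor and 50.9% for other matched promoters. In bins of equal GC content the medians of the immunoglobulin members were higher than those of other promoters, by less where GC content was low. Between 35 and 37% GC, 14 immunoglobulin members had a median log2 ratio of 1.94 and 469 other promoters 1.37. Between 37 and 39%, the medians were 2.00 (22 immunoglobulin members), 1.00 (2 T cell receptor members) and 1.24 (627 other promoters). Between 39 and 41% GC, 15 immunoglobulin members had a median log2 ratio of 2.21, 8 T cell receptor members 1.12 and 831 other promoters 0.85. Between 41 and 43%, the medians were 2.42 (13 members), 0.99 (13 members) and 0.67 (1098 promoters). Between 43 and 45%, they were 2.46 (1 member), 0.71 (12 members) and 0.43 (1341 promoters). The T cell receptor medians were thus higher than those of other promoters in the bins from 39 to 45%, and lower between 37 and 39% (2 members). After the trend with GC content was removed and the values set back on the median of other promoters (-0.37), the median was 0.64 for immunoglobulin and -0.17 for T cell receptor members, and 51 of 66 and 10 of 39 were in the top quartile of all matched promoters. All 23 Igh members and all 6 from Trav1 to Trav6-2 were in that quartile, and so were 27 of 40 Igk members, 4 of 21 Trb members and 0 of the 11 Tra/Trd members after the long stretch. The part of GC content in the ChIP to input ratio itself was not tested.

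**Figure D4:**
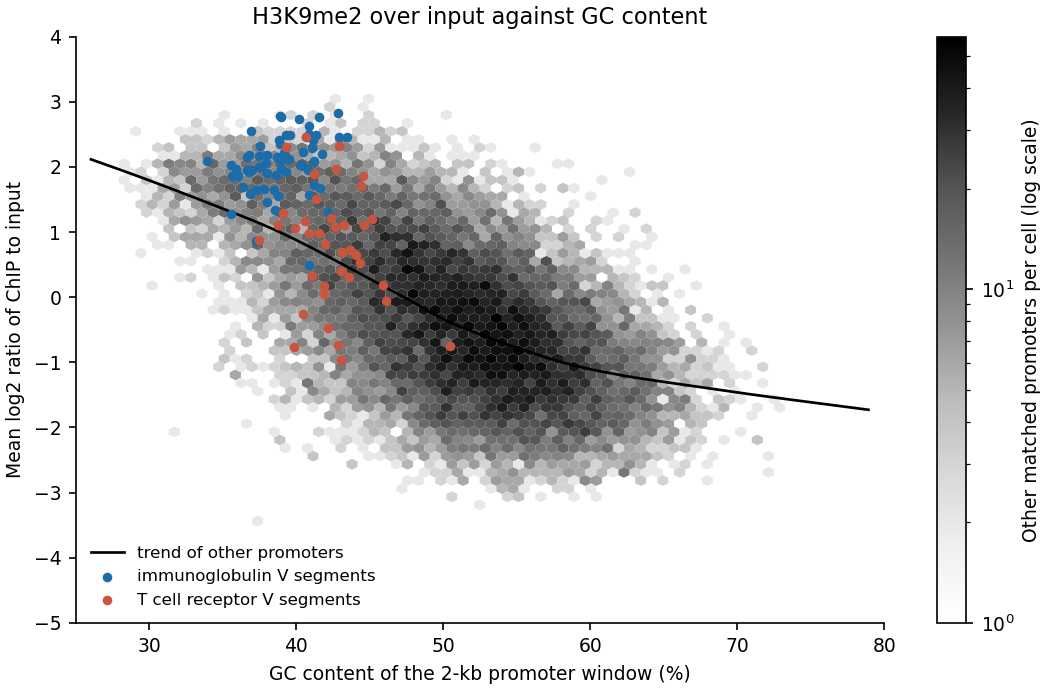
Mean log2 ratio of ChIP to input (y axis) against GC content of the 2-kb window (x axis, %) for immunoglobulin (blue) and T cell receptor (red) V segments over all other matched promoters (grey cells, darker for more promoters), with the lowess trend of the other promoters (black line). Most immunoglobulin members lie above the trend and T cell receptor members lie on both sides of it.

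The listed members are a part of the V segments in the genome. GENCODE for GRCm38 holds 344 immunoglobulin and 170 T cell receptor V segments under these symbols, of which 19.2% and 22.9% had a row, and the others were not analysed here. Among all annotated immunoglobulin V segments, the share of 75-base stretches of the window that occur more than once in the genome had a median of 0.52% in those with a row and 7.03% in those without one. For T cell receptor segments the medians were 0% and 43.6%, and 79.4% of those without a row had at least 10% of repeated stretches, against 2.56% of those with one. These were Tra/Trd segments (104 of 117 without a row), while the 14 Trb segments without a row had a median of 0% and 0 with at least 10% of repeated stretches.

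Other genes of antigen receptors were counted from a list of recombination enzymes, receptor partners and constant regions. Of 10 constant region promoters measured, 8 were above input, beside 18.6% of all promoters (6 with the replicate block, beside 15.8%). Their median log2 ratio was 1.39. Ighg1 had 35 and 44 ChIP reads beside 27 and 70 input reads (log2 fold change 2.01, SE 0.33, adjusted p = 5.1e-08), and Ighm, the constant region of IgM, 23 and 19 beside 18 and 32 (2.02, SE 0.40, adjusted p = 6.4e-06). Iglc2 (2.17), Ighg3 (1.82), Ighg2c (1.51) and Trbc2 (1.34) were also above input under both fits, and Igkc (1.11) and Ighe (1.09) only without the block (with it, adjusted p = 0.064 and 0.067). Trac and Trbc1 were not called, with mean log2 ratios of 0.20 and 0.22.

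Of the 6 partners of the B cell receptor, 2 were above input, beside 18.6% of all promoters. They were Igll1 (log2 fold change 1.51, SE 0.36, adjusted p = 0.00026) and Vpreb1 (1.31, SE 0.39, adjusted p = 0.0047). Together these form the surrogate light chain. The signalling chains Cd79a and Cd79b were not called, with mean log2 ratios of -0.47 and -0.42. Of the 5 partners of the T cell receptor, 1 was above input, beside 18.6% of all promoters. This was Cd3d (1.01, SE 0.42, adjusted p = 0.048, and 0.082 with the replicate block), and Cd3e, Cd3g, Cd247 and Ptcra were not called. Among the recombination genes, Rag1 had 1 ChIP read beside 58 input reads, a ratio of 0.0172 (interval 0.00301 to 0.0988) without scaling, and was below input (adjusted p = 0.0051), whereas Rag2 and Dntt were not called. Ptprc, the leukocyte antigen CD45, was above input (1.83, SE 0.36, adjusted p = 6.5e-06), as were the lymphocyte genes Ms4a1 (2.07, SE 0.41, adjusted p = 6.5e-06) and Cd8a (1.96, SE 0.40, adjusted p = 1.4e-05). Of the B cell markers 1 of 5 was above input, beside 18.6% of all promoters. Of the T cell markers 2 of 6 were above input (1 with the block) and 1, Cd4, was below it (not with the block, adjusted p = 0.084). How much chromatin of lymphocytes the libraries held was not tested.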

How the data were processed

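The data were 2 H3K9me2 ChIP-seq libraries and their 2 input libraries from mouse aortic media. Reads were paired-end, 75 bases long. Per the labels and methods, the authors trimmed them with Trim Galore 0.4.2 and Cutadapt 1.9.1, aligned them to GRCm38 with Bowtie2 2.2.7 and counted reads within 1 kb either side of each transcription start site with SeqMonk. The authors deposited raw read counts per promoter for each library and for the sum of each pair, and a ratio, which equals the summed ChIP count over the summed input count with no scaling for library size. The lowest summed input in the table is 21 reads. The release of the annotation and the handling of duplicate reads are not given in the sources used here.

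The V segments and the gene lists were chosen with earlier results of these data known. Symbols were matched to GENCODE M21 on GRCm38 (84.7% of symbols matched 1 gene, including all 105 members), which need not be the start sites the authors used. ChIP and input counts were compared across all 26354 promoters with edgeR 4.0.16 (R 4.3.3, quasi-likelihood test, TMM, Benjamini-Hochberg adjustment at 0.05), and SE is the size of the log2 fold change divided by the square root of F. The experiment entered edgeR only in the fit with the replicate block, and DESeq2 1.42.0, fitted without it, was an alternative. Tested on simulated data for this comparison, edgeR called 46 of 50 promoters with a true 4-fold rise, 6 of 50 with a 2-fold rise, and 0 of 50 at 0.5 of their level. Log2 ratios used a pseudocount of 1 read, the GC trend was fitted by lowess (fraction 0.3) to all matched rows but the V segments, and intervals are 95% Wilson intervals, or log intervals for a ratio of pooled ratios (Python 3.11.15, scipy 1.17.1, statsmodels 0.14.6).

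Members named by rule were the 4 highest and 4 lowest by mean log2 ratio among immunoglobulin and among T cell receptor segments. Each of these had 20 or more reads in both inputs. The member with the most ChIP reads in each locus was named as well. Others given with values, such as the ends of ranges and Iglv1, Iglv2 and Trbv5, were outside this rule. Since the study's methods tie each ChIP to its input, libraries of the same number were taken as pairs, and the difference between the ChIP libraries and that between the inputs had a correlation of 0.104 across promoters. The libraries of each pair differed by more than counting error (chi-square per degree of freedom 1.52 for ChIP and 1.28 for input). With the handling of duplicate reads unknown, these values cannot tell separate samples from a repeat of 1 library. A library total is the sum over the table, not a depth.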

Additional observations from a re-analysis of the deposited data

How the results depend on the processing

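With at least 20 reads required in each input, 16 of 16 immunoglobulin and 8 of 16 T cell receptor members were above input, of which 16 and 6 were called in the full table as well and 2 T cell receptor members were not; fewer members are tested there. DESeq2 called 8 T cell receptor members. Leaving out 1 of the 4 libraries at a time gave 56 to 64 immunoglobulin and 9 to 19 T cell receptor members above input, and 0 below in each. With the replicate block the counts were 62 and 14, and the block ended the calls of the 5 members named above and, in the gene lists, of Igkc, Ighe, Cd3d, Lmod1, Myocd, Cd4, Pecam1 and Pdgfra, and no others. Library totals in place of TMM gave 64 and 14, and autosomal promoters only 64 and 20.

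Removing the GC trend lowered the median log2 ratio of immunoglobulin members to 0.64 and turned that of T cell receptor members to -0.17. Other matched promoters had a median of -0.36 on that scale. Under the minimum of 20 reads in both inputs, the T cell receptor median was 0.52 and the pooled difference between the classes 1.38. Single experiments gave 2.06 to 2.25 for the immunoglobulin median, 0.61 to 0.98 for the T cell receptor median and 1.05 to 1.25 for the pooled difference. Without the 6 segments from Trav1 to Trav6-2, an alternative chosen after seeing the data, the pooled difference was 1.46. A pseudocount of 5 reads, autosomal totals, functional segments only, windows without overlap and windows with under 10% repeated stretches moved these values by less than the spread between the experiments; the pooled difference has no pseudocount and no GC trend, so those alternatives give no value for it. Of 178 results for single named members under the alternatives, 5 crossed the threshold, those given above for Trbv16 and Trbv30. The other 173 include the DESeq2 results of Trav20, Trdv5, Trbv4 and Trgv2, whose adjusted p was undefined and had no side of the threshold. Differences between single segments were not tested, and a T cell receptor member has 9 and 13 ChIP reads at the median.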

Other observations

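The loci also hold genes that are not receptor segments, whose promoters were looked up after the values of the members were seen. Between the V segments of the Trb locus lie genes of trypsin-like proteases, and all 10 non-receptor promoters listed there were in the top quartile of log2 ratio, with a median of 1.56 and a range of 0.81 to 2.24, while 12 of the 21 Trbv members were in that quartile, with a median of 0.98. By edgeR, 7 of these 10 promoters were above input, beside 18.6% of all promoters. Try5 and Try10, trypsinogen genes of the pancreas, had mean log2 ratios of 2.24 and 2.22. The J segments of the same locus, with more GC in their windows, lay between -0.24 and 0.46, and their windows overlap. Among the members of the Tra locus lie 3 olfactory receptor promoters, with mean log2 ratios of 2.22 (Olfr1509), 1.07 (Olfr1507) and 0.79 (Olfr1508), the last of which was not called above input (edgeR adjusted p = 0.091). Promoters within 500 kb outside the Igh members, other than receptor segments, had a median log2 ratio of -0.19 over 11 rows, and 1 of them was above input. The same median was 0.53 outside Igk (7 rows, 1 above input), 0.68 outside Igl (18 rows, 7 above) and -0.59 outside Tra/Trd (32 rows, 6 above). Outside Trb it was 1.22 (22 rows, 14 above), higher than that of the Trbv members, and outside Trg -0.21 (6 rows, 0 above). The share above input over all promoters was 18.6%. Median GC content was 53.5% outside Igh, 53.0% outside Igk, 45.2% outside Igl, 49.1% outside Tra/Trd, 41.6% outside Trb and 49.4% outside Trg. Among the members it was 39.3% in Igh, 38.7% in Igk, 37.6% in Igl, 43.2% in Tra/Trd, 41.9% in Trb and 43.1% in Trg. At the 10 non-receptor promoters inside Trb it was 39.1%, and at the 3 olfactory receptor promoters inside Tra 37.4%. The part of GC content in these values was not tested.

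Another 6 rows are annotated as T cell receptor V segments under symbols that the rule does not take (the Tcrg-V names and B230359F08Rik). Their mean log2 ratios ran from -0.14 to 1.54 with a median of 0.66. By edgeR, 2 of the 6 were above input, beside 18.6% of all promoters.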
